A study of Mus musculus with 2 samples.

Results

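The circadian clock genes examined here were 10 genes of the mouse feedback loop, namely the period genes Per1, Per2 and Per3, the cryptochrome genes Cry1 and Cry2, the REV-ERB genes Nr1d1 and Nr1d2, the PAR bZIP gene Tef, and the casein kinase 1 genes Csnk1d and Csnk1e. They were chosen by symbol, low values included, and all 10 were found among the 11405 genes that both deposited tables list. The cells were MS1, immortalised mouse endothelial cells of islet origin, measured by sequencing of poly-A RNA. The knockdown library came from cells given a lentivirus with a short hairpin RNA against Pspc1, labelled as the Pspc1 knockdown genotype. The control library came from cells given a lentivirus with a hairpin against LacZ, a bacterial gene that mice lack, labelled wt. Each group held 1 library, so no value has a replicate error and no difference has a replicate check. The sources used here give neither the time of harvest nor any synchronising treatment of the cultures, and they do not say whether either line was a clone.

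The mammalian clock is a transcriptional loop. CLOCK and BMAL1 (gene Arntl) bind E-box elements and switch on the Per and Cry genes, whose proteins return to the nucleus and repress CLOCK and BMAL1. The kinases CK1 delta and CK1 epsilon phosphorylate PER proteins and set how long they last. In a linked loop the REV-ERB receptors repress Arntl through elements that the ROR receptors activate, and the PAR bZIP factors activate genes through D-box elements, which NFIL3 represses. Most mouse tissues and cultured cells carry this loop, endothelial cells included, and levels of many of its transcripts vary over the day. PSPC1 belongs to the DBHS family of RNA-binding proteins, whose members NONO and SFPQ are known to bind PER protein complexes in mouse cells.

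Pspc1 (ENSMUSG00000021938), the targeted gene, had a value of 3.78 in the knockdown library and 28.8 in the LacZ control library, on 192 and 1880 reads. Its log2 ratio was -2.77, and 0.0175% of listed genes had a log2 ratio at or below it. Reads on the listed genes came to 53518762 in the knockdown library and 64009912 in the control library. The values are those the authors deposited, a gene-level signal scaled by 1 factor per library. The log2 ratio is log2((knockdown + 0.5)/(control + 0.5)), and a gene was called at a change of at least 2-fold on that scale. Intervals are 95% exact counting intervals of the ratio without the pseudocount, from the read numbers inferred from the values, and cover counting error only. In bulk RNA, a different share of expressing cells and a different amount per cell cannot be told apart. Of 10 endothelial markers, 9 were listed, with a summed value of 6373 in the knockdown library and 6123 in the control library. Their log2 ratios lay on both sides of 0, with 4 above it and 5 below, from 0.59 for Esam to -0.75 for Cdh5, -0.89 for Tek and -0.94 for Kdr, none of them called. None of the 5 islet endocrine markers was listed. Of the epithelial markers 2 of 5 were listed (Krt18 and Krt19, not Epcam), with sums of 152.1 in the knockdown library and 47.7 in the control library, and Krt19 was called as higher (log2 ratio 2.25). Of the leukocyte markers 1 of 5 was listed (Cd68, not Ptprc), with 123.7 in the knockdown library and 102.7 in the control library. Of the fibroblast markers 1 of 5 was listed (Pdgfra), with 0.985 in the knockdown library and 1.15 in the control library. Of the pericyte or smooth muscle markers 1 of 5 was listed (Pdgfrb), with 2.38 in the knockdown library and 0.720 in the control library on 121 and 47 reads, a log2 ratio of 1.24 that was called as higher. The part of these markers in the results below was not tested.

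Clock motifs were looked for in the reference promoters. Of the 10 genes, 8 (all but Csnk1d and Per2) matched 13 windows in the RefSeq table (GRCm38.p6), each running from 250 bases before a transcription start to 50 after it. The E-box CACGTG, read on both strands, was present in 1 of 2 windows of Per1, in that of Cry1 and in both of Tef, so in 3 of the 8 genes, against 8.09% of the 27025 genes in the table. The D-box TTATGTAA was present only in Per3, at 2 places, against 1.11% of all genes, and its variant TTACGTAA in none of the 8. A RORE-like element, AGGTCA after 5 bases of which at least 4 are A or T, was in none of the 8, against 2.96% of all genes. The 5 windows with a match to an E-box or D-box string are shown. They belong to the genes with the highest log2 ratio (Tef), a high one (Per1) and 2 below 0 (Cry1 and Per3). Nr1d1, whose log2 ratio of 0.51 was above that of Per1 (0.40), had no match in its window. Capitals mark the motif, and each sequence runs 5′ to 3′ on the strand of its gene.
Tef, upstream start, chr15:81802423-81802722, plus strand: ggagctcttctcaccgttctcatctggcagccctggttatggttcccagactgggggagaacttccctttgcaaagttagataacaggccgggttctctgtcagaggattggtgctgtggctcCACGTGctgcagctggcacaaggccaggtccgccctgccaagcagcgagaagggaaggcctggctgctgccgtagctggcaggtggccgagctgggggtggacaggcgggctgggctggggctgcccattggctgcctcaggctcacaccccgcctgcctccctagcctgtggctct
Tef, downstream start, chr15:81811164-81811463, plus strand: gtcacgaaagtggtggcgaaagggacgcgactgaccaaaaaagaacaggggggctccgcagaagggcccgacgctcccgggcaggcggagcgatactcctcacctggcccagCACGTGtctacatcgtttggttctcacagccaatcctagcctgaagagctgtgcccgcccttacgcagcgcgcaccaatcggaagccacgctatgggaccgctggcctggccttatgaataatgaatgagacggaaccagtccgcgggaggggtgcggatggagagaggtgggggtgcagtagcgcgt
Per1, upstream start, chr11:69098699-69098998, plus strand: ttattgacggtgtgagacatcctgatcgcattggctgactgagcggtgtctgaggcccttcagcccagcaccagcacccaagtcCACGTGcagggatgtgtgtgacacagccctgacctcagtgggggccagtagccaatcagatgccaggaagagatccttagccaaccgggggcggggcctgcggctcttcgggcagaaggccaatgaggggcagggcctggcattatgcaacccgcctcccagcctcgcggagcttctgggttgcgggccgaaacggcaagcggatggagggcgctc
Cry1, chr10:85185005-85185304, minus strand: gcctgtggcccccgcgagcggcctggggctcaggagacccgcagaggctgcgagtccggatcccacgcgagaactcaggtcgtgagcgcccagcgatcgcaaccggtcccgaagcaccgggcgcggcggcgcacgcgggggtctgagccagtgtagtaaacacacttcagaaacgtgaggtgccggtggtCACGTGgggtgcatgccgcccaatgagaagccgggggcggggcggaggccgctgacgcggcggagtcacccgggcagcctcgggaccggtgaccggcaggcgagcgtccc
Per3, chr4:151044616-151044915, minus strand: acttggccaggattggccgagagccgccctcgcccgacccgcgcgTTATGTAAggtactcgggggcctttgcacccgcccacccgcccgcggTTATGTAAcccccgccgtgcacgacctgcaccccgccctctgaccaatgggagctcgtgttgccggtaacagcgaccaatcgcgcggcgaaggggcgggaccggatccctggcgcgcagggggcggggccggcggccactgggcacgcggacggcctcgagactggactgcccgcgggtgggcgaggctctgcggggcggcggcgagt
The E-box begins at position -127 from the upstream start of Tef, -138 from its downstream start, -166 from the upstream start of Per1 and -60 from the Cry1 start. The window of the downstream Per1 start, chr11:69099902-69100201, holds none. The D-boxes of Per3 begin at positions -205 and -158. A match is a string of letters and not a shown binding site, and E-boxes of other genes can lie outside these windows. Which start MS1 cells use was not measured.

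The 3 period genes were present at very different levels, with Per1 far above the others. Per1 (ENSMUSG00000020893, mm10 chromosome 11, 69095217 to 69109960, plus strand) encodes a PER repressor whose transcription also responds quickly to outside signals such as glucocorticoids. It had a value of 42.4 in the knockdown library and 32.1 in the control library, on 2155 and 2096 reads. Its log2 ratio was 0.40 with an interval of 0.32 to 0.49, a 1.32-fold higher value that did not reach the threshold. Per2 (ENSMUSG00000055866, chromosome 1, 91415982 to 91459324, minus strand), the repressor whose stability CK1 controls, had 1.16 in the knockdown library and 1.56 in the control library. These rested on only 59 and 102 reads, the fewest of any member, and its interval of -0.92 to 0.05 held 0. Per3 (ENSMUSG00000028957, chromosome 4, 151003652 to 151044665, minus strand), which is not needed for rhythms in most mouse tissues, had 3.47 in the knockdown library and 3.74 in the control library. Its interval of -0.40 to 0.18 also held 0, so counting alone does not separate the libraries at Per2 or Per3. Per 1 kb of exons, Per1 made up 93.1% of the period transcripts in the knockdown library and 89.7% in the control library. The ratio of Per1 to Per2 was 1.78 times as high in the knockdown library (interval 1.27 to 2.51), and that of Per1 to Per3 was 1.43 times as high (1.16 to 1.76). Such ratios within a library do not depend on how the libraries are scaled.

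The 2 cryptochromes, the strongest repressors of CLOCK and BMAL1, lay close to each other and differed little between libraries. Cry1 (ENSMUSG00000020038, chromosome 10, 85131700 to 85185064, minus strand) had 9.99 in the knockdown library and 11.9 in the control library. Its log2 ratio was -0.24, with an interval of -0.42 to -0.09. Cry2 (ENSMUSG00000068742, chromosome 2, 92403646 to 92434043, minus strand) had 29.6 in the knockdown library and 26.1 in the control library, a log2 ratio of 0.18 with an interval of 0.08 to 0.29. The signs differed, and neither gene came near 2-fold. Per kb, Cry2 made up 61.0% of the cryptochrome transcripts in the knockdown library and 53.7% in the control library, and the Cry2 to Cry1 ratio was 1.35 times as high (interval 1.18 to 1.55). The summed cryptochrome level per kb was 7.67 in the knockdown library and 7.68 in the control library. Exons of Cry2 share 295 bp, 4.67% of their length, with the opposite-strand transcript D930015M05Rik, which the tables do not list.

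**Figure D1:**
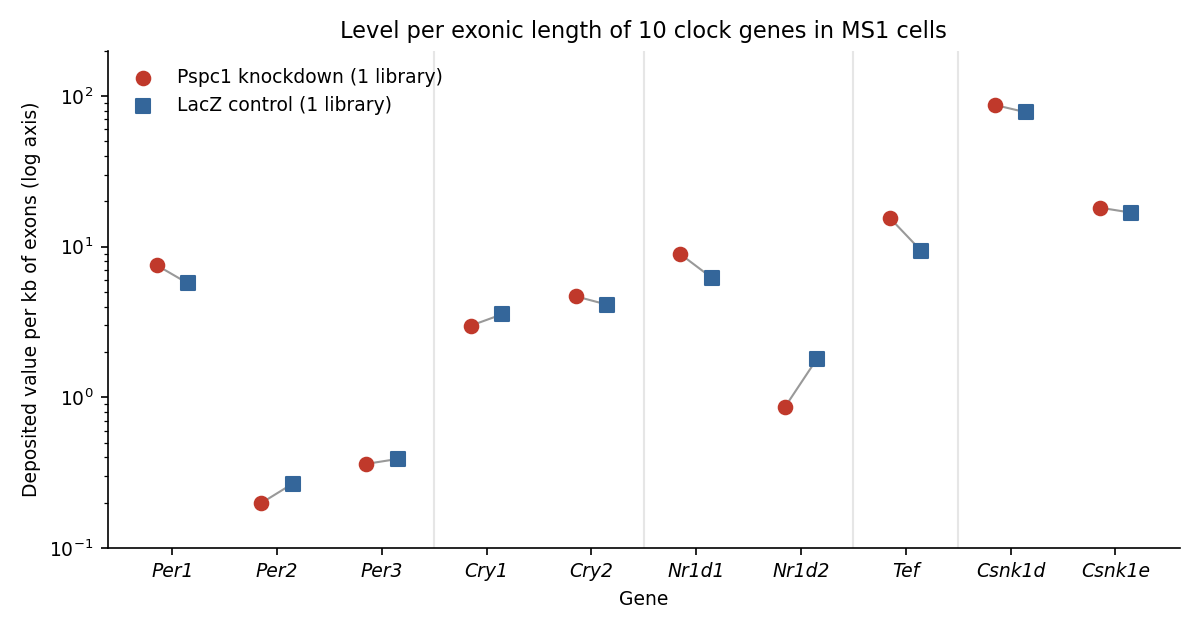
Deposited value per kb of exons (log axis) of the 10 clock genes, 1 point per library, with the Pspc1 knockdown left of the LacZ control and families parted by vertical lines. Csnk1d stands at 87.3 in the knockdown and 78.0 in the control library and Per2 at 0.198 and 0.267 in that order, and the line of Nr1d2 slopes the other way from that of Nr1d1.

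The REV-ERB pair diverged most. Nr1d1 (ENSMUSG00000020889, chromosome 11, 98767932 to 98775333, minus strand) encodes REV-ERB alpha, a heme-binding receptor that represses Arntl. It had 27.4 in the knockdown library and 19.1 in the control library, on 1392 and 1246 reads, a log2 ratio of 0.51 with an interval of 0.41 to 0.63. Nr1d2 (ENSMUSG00000021775, chromosome 14, 18204054 to 18239127, minus strand) encodes REV-ERB beta, which acts on the same elements. It had 4.69 in the knockdown library and 9.67 in the control library, on 238 and 631 reads. The gene with the higher level was thus higher in the knockdown library and its paralogue lower, by 1.44-fold for Nr1d1 and by 2.06-fold for Nr1d2. With the pseudocount the log2 ratio of Nr1d2 was -0.97 and missed the threshold, while its interval of -1.27 to -0.83 spans it. It passed the threshold as lower under scaling by total reads (-1.06) and with the smaller pseudocount of 0.05 (-1.04), and lay at -0.67 after a correction for exonic length and GC content. Per kb, the Nr1d1 to Nr1d2 ratio was 10.3 in the knockdown library and 3.47 in the control library, 2.96 times as high (interval 2.498 to 3.52). The length and GC correction, which that interval leaves out, brought the pair closer, to log2 ratios of 0.41 for Nr1d1 and -0.67 for Nr1d2. Nr1d1 made up 91.1% of REV-ERB transcripts per kb in the knockdown library and 77.6% in the control library. The summed level per kb of the pair was 9.78 in the knockdown library and 7.99 in the control library.

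Nr1d1 is one of 5 members whose exons overlap a gene on the opposite strand. It shares 263 bp, 8.55% of its exonic length, with the 3′ part of Thra, which encodes thyroid hormone receptor alpha. The labels name no strand-marking kit, so whether reads from the shared stretch were assigned to the right gene is not known. Thra itself had 13.6 in the knockdown library and 12.6 in the control library, with a log2 ratio of 0.11 and an interval of -0.04 to 0.26 that holds 0. The ratio of Nr1d1 to Thra was 1.33 times as high in the knockdown library (interval 1.17 to 1.51). No pair of members shared a single 50-base word of annotated transcript sequence, so a read of that length matching exactly cannot be confused between paralogues such as Nr1d1 and Nr1d2 or Csnk1d and Csnk1e. The share of a member's words found in the transcripts of other genes was highest for Nr1d1, at 7.27%, all in Thra. It was 5.13% for Nr1d2, all in AC170187.1, which the tables do not list.

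Tef had the highest log2 ratio of the 10. Tef (ENSMUSG00000022389, chromosome 15, 81802421 to 81826863, plus strand) encodes thyrotroph embryonic factor, an activator of D-box genes that is itself an output of the clock. It had 121.7 in the knockdown library and 73.5 in the control library, on 6180 and 4795 reads. That is a 1.66-fold higher value, with a log2 ratio of 0.72, an interval of 0.67 to 0.78, and 0.84 after the correction for length and GC content. Dbp, a relative of Tef that is strongly rhythmic in many mouse tissues, had 8.84 in the knockdown library and 8.87 in the control library, a log2 ratio of -0.004. The Tef to Dbp ratio was 1.66 times as high in the knockdown library (interval 1.46 to 1.90), so these 2 relatives differed by more than counting error. The tables do not list Hlf, the third PAR bZIP gene of the loop. Exons of Tef share 193 bp, 2.45% of their length, with the unlisted antisense gene Gm17597.

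Per kb of exons the clock kinases were the most abundant members. In the values as deposited, they and Per3 had the log2 ratios nearest to 0, an order that changed with the scaling. Csnk1d (ENSMUSG00000025162, chromosome 11, 120961749 to 120991330, minus strand), which encodes CK1 delta, had 438.4 in the knockdown library and 391.7 in the control library. Its log2 ratio was 0.16, with a narrow interval of 0.14 to 0.19 from 22254 and 25560 reads. Csnk1e (ENSMUSG00000022433, chromosome 15, 79417856 to 79455566, minus strand), which encodes CK1 epsilon, had 119.7 in the knockdown library and 110.9 in the control library, a log2 ratio of 0.11 with an interval of 0.06 to 0.16. Both differences were about as large as the effect of scaling, since scaling by total reads shifted log2 ratios without the pseudocount by -0.10 and gave 0.06 for Csnk1d and 0.01 for Csnk1e. Scaling by a trimmed mean of M values moved them the other way, to 0.204 for Csnk1d and 0.152 for Csnk1e. Median of ratios gave 0.212 for Csnk1d and 0.160 for Csnk1e. Under these scalings Cry1, at -0.201 and -0.193 in that order, was nearer to 0 than Csnk1d. The Csnk1d to Csnk1e ratio per kb was 4.80 in the knockdown library and 4.64 in the control library, and the interval of its change, 0.997 to 1.08, held 1. Of all the ratios within a family, that of Csnk1d to Csnk1e and that of Per3 to Per2 (interval 0.844 to 1.85) were the ones whose intervals held 1. Exons of Csnk1d share 63 bp with the antisense gene Gm28192, which had values of 1.77 and 1.55 in the knockdown and control libraries. Those of Csnk1e share 267 bp with Gm16059, which is unlisted.

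Per length of exons the members spanned more than 2 orders of magnitude, in the same order in both libraries. From the top the order was Csnk1d, Csnk1e, Tef, Nr1d1, Per1, Cry2, Cry1, Nr1d2, Per3 and Per2. In the knockdown library the levels per kb were 87.3, 18.2, 15.5, 8.91, 7.54, 4.68, 2.99, 0.867, 0.361 and 0.198. In the control library they were 78.0, 16.8, 9.34, 6.21, 5.70, 4.12, 3.56, 1.79, 0.389 and 0.267. The exact Poisson intervals of neighbours overlapped only for Nr1d1 (5.87 to 6.56) and Per1 (5.46 to 5.95) in the control library, and spread between cultures is not covered. Csnk1d made up 59.6% of the summed level per kb of the 10 genes in the knockdown library and 61.8% in the control library. Among all listed genes Csnk1d stood at percentile 93.4 of the level per kb in the knockdown library and 93.2 in the control library, and Per2 at 5.38 in the knockdown library and 5.37 in the control library.

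**Figure D2:**
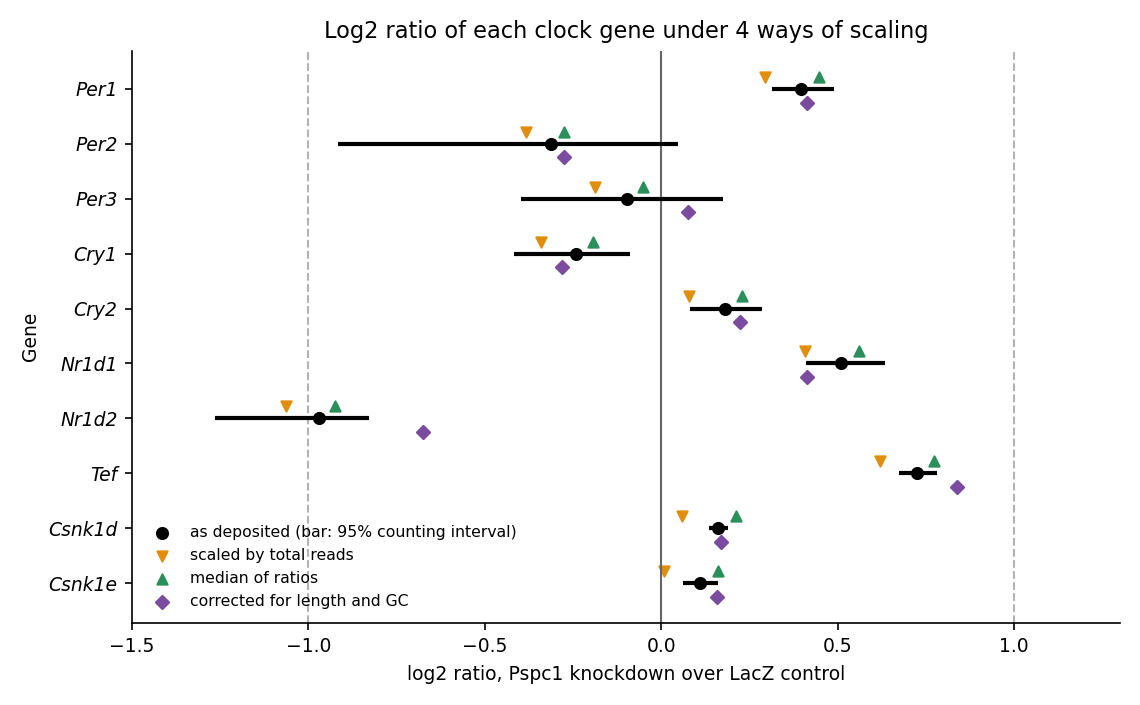
Log2 ratio of knockdown over control for each clock gene (points, with the pseudocount) under 4 ways of scaling, with black bars for the 95% counting interval of the ratio without pseudocount and dashed lines at 2-fold. Tef, Nr1d1 and Per1 stay right of 0 under each, Nr1d2 lies left of the dashed line under total-read scaling, and Per3 crosses 0 with the length and GC correction.

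Read against the whole table, none of the 10 genes was called, where 1.31% of listed genes were called as 2-fold higher and 2.68% as 2-fold lower. At 1.5-fold, Tef was higher and Nr1d2 lower, against 4.81% of listed genes higher and 12.8% lower. A single gene of 10 in each direction is near that background. Of all listed genes, 96.98% had a log2 ratio at or below that of Tef, 93.6% at or below Nr1d1 and 89.6% at or below Per1, while 3.06% lay at or below Nr1d2. The median log2 ratio of the 10 genes was 0.14 and their range -0.97 to 0.72, beside a median of -0.05 over all 11405 genes.

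In the values as deposited, the sign of the log2 ratio lined up with the level of the gene, although Per3 turned above 0 with the length and GC correction. The 6 members with a mean value of at least 20 (Per1, Cry2, Nr1d1, Tef, Csnk1d and Csnk1e) had log2 ratios above 0, from 0.11 to 0.72. The other 4, with a mean under 20 (Per2, Per3, Cry1 and Nr1d2), had log2 ratios below 0. The split at 20 was chosen after these values were seen, so it describes the members and supports nothing. The table as a whole leaned the same way. Of the 5892 genes at a mean of 20 or more 55% had a log2 ratio above 0 (median 0.04), and of the 5513 below that mean 65.3% had one below 0 (median -0.19). Over all listed genes, 45.2% lay above 0 and 54.8% below it. Counting intervals left out 0 for 8 of the 10 members, all but Per2 and Per3, and for 75.2% of all listed genes, so that count is near the background.

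**Figure D3:**
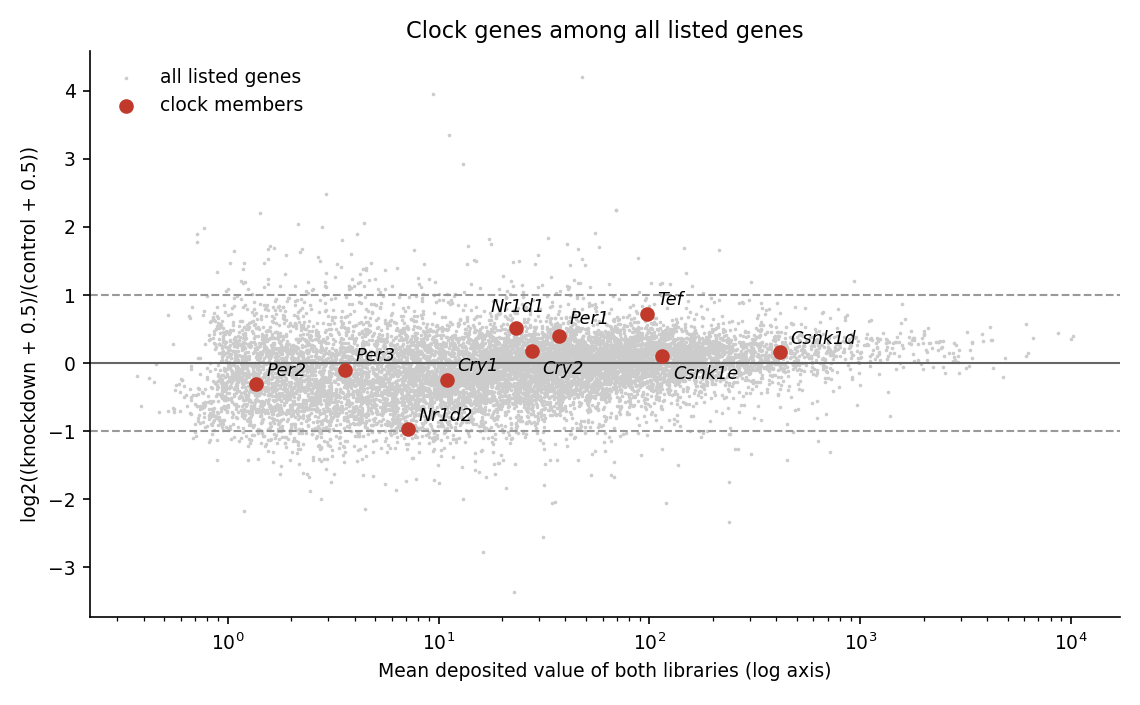
Log2 ratio against the mean deposited value (log axis) for all 11405 listed genes (grey) and the 10 clock genes (red, named), with dashed lines at 2-fold. The 4 clock genes left of a mean of 20 lie below 0 and the 6 to the right of it above 0, as deposited. With the length and GC correction, which is not drawn here, Per3 moves above 0.

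Base composition moved with these values too. Over 11399 genes with a known GC content, the log2 ratio had a Spearman correlation of 0.37 with GC content and of -0.37 with exonic length, a description across genes that are not independent. The longest Nr1d2 transcript has 41.8% GC, the lowest of the members, whose other 9 genes lie between 51.6% (Cry1) and 59.4% (Per1). In the 1187 genes under 42% GC the median log2 ratio was -0.41 and the middle 50% ran from -0.69 to -0.13, so Nr1d2 at -0.97 lay below that range. In the 2488 genes of 50% to 54% GC the median was 0.04 and the upper quartile 0.24, and Tef (53.1% GC) lay above it. Exonic lengths ran from 3077 bp for Nr1d1 to 9608 bp for Per3. After a quadratic fit on length and GC was subtracted, Tef had 0.84, Nr1d1 0.41, Per1 0.41 and Nr1d2 -0.67, and Per3 turned to 0.07. The part of length and GC content in the difference between the libraries was not tested further.

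**Figure D4:**
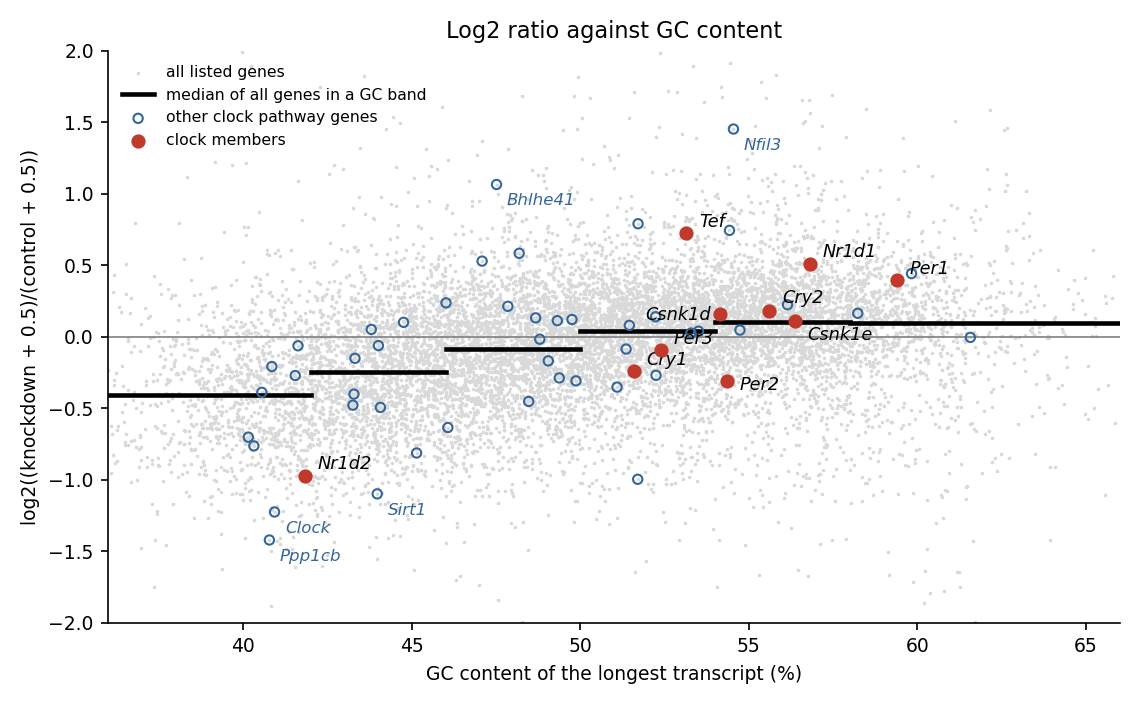
Log2 ratio against GC content of the longest transcript for all listed genes (grey), the clock genes (red) and other clock pathway genes (blue rings), with black bars for the median of all genes in each of 6 GC bands. Genes beyond the axes are not drawn. Nr1d2, Clock and Ppp1cb sit at the GC-poor end, where the median of all genes is -0.41, and lie below that median.

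The other genes of the loop were taken from lists of 52 genes, of which 47 were listed. Of the 47, 2 were called as higher (Nfil3 and Bhlhe41) and 3 as lower (Clock, Ppp1cb and Sirt1), against 1.31% and 2.68% of all listed genes. Their median log2 ratio was -0.06, beside -0.05 for all genes. None of the 5 had a mean of at least 50, where 0.551% of genes were called higher and 0.937% lower. Clock, Nfil3 and Sirt1 had means of 2.77, 3.30 and 0.687. Of the 5513 genes with a mean under 20, 99 were called as higher and 235 as lower. Of the 5892 genes at a mean of 20 or more, where Bhlhe41 and Ppp1cb lay, 50 were called as higher and 71 as lower.

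The activators, which act through E-boxes, had log2 ratios on both sides of 0. Clock had 1.46 in the knockdown library and 4.08 in the control library, on 74 and 266 reads, with a log2 ratio of -1.22 and an interval of -1.88 to -1.11. Its ratio was -0.66 after the length and GC correction and -0.49 with a pseudocount of 5, both short of 2-fold, and its longest transcript is GC-poor, at 40.9%. Arntl, which encodes its partner BMAL1 and is the main target of the REV-ERB receptors, had 10.3 in the knockdown library and 6.68 in the control library (log2 ratio 0.58, interval 0.43 to 0.81). Arntl2, a paralogue of Arntl, had 1.77 in the knockdown library and 2.02 in the control library, and its interval held 0. Npas2, which can stand in for Clock, was not listed. Of the ROR receptors, the activators opposed to REV-ERB, Rorb alone was listed, with 2.56 in the knockdown library and 2.70 in the control library. Arntl thus had a higher value in the knockdown library, as did its repressor Nr1d1, while its other REV-ERB repressor Nr1d2 had a lower one.

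Among repressors and outputs the genes called were both repressors. Nfil3, the repressor of D-box genes and so the counterpart of TEF, had 5.06 in the knockdown library and 1.53 in the control library, on 257 and 100 reads. Its log2 ratio of 1.45 (interval 1.385 to 2.07) remained past 2-fold under each scaling and the length and GC correction, and was 0.62 with a pseudocount of 5. Bhlhe41, which encodes the E-box repressor DEC2, had 28.8 in the knockdown library and 13.5 in the control library, a log2 ratio of 1.06 with an interval of 0.97 to 1.21. It fell short of 2-fold when scaled by total reads (0.96) and with a pseudocount of 5 (0.87). Its paralogue Bhlhe40 (DEC1) had 16.0 in the knockdown library and 19.6 in the control library, a log2 ratio of -0.29. Ciart, a further repressor, had 2.13 and 2.67 in the knockdown and control libraries. The output genes Noct, a circadian phosphatase, and Usp2, a deubiquitinase, had log2 ratios of 0.24 and 0.04. Noct had 9.55 in the knockdown library and 8.03 in the control library, and Usp2 had 2.19 in the knockdown library and 2.11 in the control library.

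Among the enzymes that modify or degrade clock proteins 1 gene was called, against 1.31% of all listed genes called as higher and 2.68% as lower. Lists this short can hold few calls at such shares. None of 8 ubiquitin ligase and stability factors was called, and 4 of them had a log2 ratio above 0, beside 45.2% of all listed genes. Usp7, a deubiquitinase of CRY proteins, had 13.0 in the knockdown library and 23.1 in the control library (log2 ratio -0.81). Btrc and Cul1, parts of the SCF ligase that acts on PER, had log2 ratios of -0.39 and -0.49. After the length and GC correction Btrc turned above 0, to 0.25, and Cul1 stood at -0.33. Of 10 listed kinases and phosphatases, 1 was called, the phosphatase catalytic gene Ppp1cb, with 18.1 in the knockdown library and 49.4 in the control library. Its log2 ratio was -1.42 (interval -1.55 to -1.34), and -0.92 after the length and GC correction. Prkaa1, an AMPK catalytic subunit that targets CRY1, had 11.7 in the knockdown library and 19.3 in the control library. The kinase gene Gsk3b had 18.2 in the knockdown library and 28.6 in the control library, a log2 ratio of -0.63 that was not called. The length and GC correction brought Prkaa1 from -0.70 to -0.37 and Gsk3b to -0.33. Csnk1a1, the gene of casein kinase 1 alpha, had 61.9 in the knockdown library and 86.4 in the control library (-0.48, not called). The 3 listed casein kinase 1 genes therefore differed in sign, with Csnk1a1 below 0 and Csnk1d and Csnk1e above it, and after the length and GC correction Csnk1a1 stood at -0.07.

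Partners and cofactors of the PER and CRY complexes included the relatives of PSPC1. Nono had 457.5 in the knockdown library and 417.4 in the control library (log2 ratio 0.13), and Sfpq had 107.8 in the knockdown library and 133.6 in the control library (log2 ratio -0.31). Of the 12 genes in that list, 1 was called, against 1.31% of all listed genes called as higher and 2.68% as lower. That gene was the deacetylase gene Sirt1, on only 13 and 73 reads in the knockdown and control libraries. Its log2 ratio was -1.10, with an interval of -3.10 to -1.26 without the pseudocount, and became -0.22 with a pseudocount of 5 and -0.88 after the length and GC correction. Crebbp, a coactivator acetyltransferase, had 3.55 in the knockdown library and 7.57 in the control library and lay at the edge, with -0.996. It passed 2-fold under total-read scaling and with the pseudocount of 0.05. Ncor1 and Hdac3, corepressors that REV-ERB recruits, had log2 ratios of -0.45 and 0.53. After the length and GC correction Ncor1 stood at -0.14 and Hdac3 at 0.61.

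None of the 6 clock-controlled genes was called, against 1.31% of all listed genes called as higher and 2.68% as lower. Cdkn1a, the p21 gene, which REV-ERB alpha is reported to repress in liver, had 838.6 and 500.5 in the knockdown and control libraries (log2 ratio 0.74). Nampt, an enzyme of NAD synthesis under E-box control, had 10.03 in the knockdown library and 17.4 in the control library (-0.76). After the length and GC correction Nampt stood at -0.42 and Cdkn1a at 0.68. Nos3, endothelial nitric oxide synthase, had 874.9 and 780.6 in the knockdown and control libraries (0.16). The 6 genes thus had log2 ratios on both sides of 0, with 4 above it and a median of 0.14. Of all listed genes 45.2% lay above 0, with a median of -0.05. With 2 libraries, no likeness of pattern across samples could be ranked between these genes and the members.

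**Figure D5:**
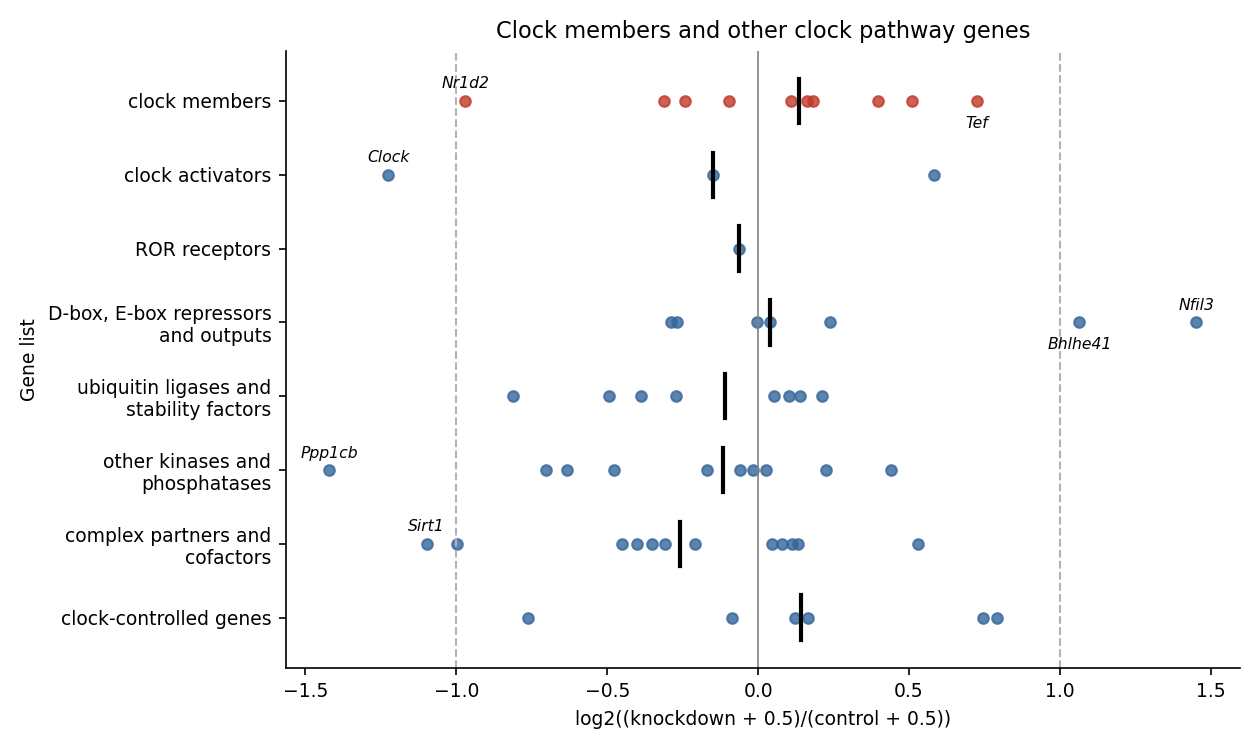
Log2 ratio (with pseudocount) of each listed gene in the clock member list (red, top) and in 7 lists of other clock pathway genes (blue), with a black bar for the list median and dashed lines at 2-fold. Points past the dashed lines are Nfil3 and Bhlhe41 on the right and Clock, Ppp1cb and Sirt1 on the left, and the 2 members past 1.5-fold, Nr1d2 and Tef, are named too.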

How the data were processed

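Poly-A RNA of MS1 cells was sequenced in 2 libraries, 1 per group, grouped by the treatment label. The build mm10 and, in no stated order, DESeq 1.39.0, featureCounts 2.0.0, HISAT2 2.1.0 and Trimmomatic 0.39 stand in the submitters' processing notes. Sources used here give no annotation, scaling formula or low-value filter. The authors deposited a continuous gene-level signal, and each value was a whole multiple of 1 step per library (0.0197 in the knockdown library and 0.0153 in the control library, 100% within 0.01 reads). Read numbers were inferred from that step, taken from the gaps between values. Another check on the lowest values, which starts from the lowest one as 1 read, did not accept them as recovered reads (by the gaps, the lowest knockdown value stood at 6 reads), so they served for counting intervals and scaling only. The values were used as deposited, because the authors had already scaled them. Without replicates no test was run.

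Symbols matched 11399 of 11405 identifiers through the table of gene names. Coordinates, merged exonic length and GC content were taken from GENCODE M21 (mm10), which the authors may or may not have used. Promoter sequences were RefSeq's (GRCm38.p6). Alternatives were scaling by total reads, a trimmed mean of M values (30% of M and 5% of A trimmed) or median of ratios, pseudocounts of 5 and 0.05, a minimum mean of 50, a 1.5-fold threshold and a correction for length and GC content. Members, lists and tests were chosen with earlier results of these data known. The split at a mean of 20, the GC bands, the ratios within families, the comparison of 50-base words and the number of A or T bases asked of a RORE were added after values were seen. Named pathway genes were all listed activators, ROR receptors and D-box or E-box genes, Nono, Sfpq and up to 4 genes per list with the largest absolute log2 ratio. Some genes that this rule names are not reported here. Calculations used Python 3.11.15 with scipy 1.17.1, pandas 2.3.3 and numpy 2.4.6. Read inference, log2 ratios, counting intervals and the trimmed mean were tested on simulated reads, and the other steps were not.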

Additional observations from a re-analysis of the deposited data

How the results depend on the processing

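No paired analysis was possible because each group held 1 library, and for the same reason no replicate could be left out. The count of clock members past 2-fold was 0, and it was 1 (Nr1d2, lower) under total-read scaling and with a pseudocount of 0.05, and 2 at a 1.5-fold threshold. The count of other pathway genes was 5, and it was 1 with a pseudocount of 5, 2 with the length and GC correction, 0 with a minimum mean of 50 and 12 at 1.5-fold. The last 2 follow from the rule itself. The median log2 ratio of the members was 0.14, and it was 0.032 with scaling by total reads, which shifts ratios without the pseudocount by -0.10, and 0.047 as a mean in place of a median. With total-read scaling the median over all listed genes moved too, from -0.05 to -0.15. The log2 ratio of Pspc1 was -1.94 with a pseudocount of 5 and -2.45 with the length and GC correction, against -2.77. Over 6 alternatives for each of the 10 members, 49 of 60 log2 ratios moved by less than the counting error and 11 moved further. The sign turned for 1 member, Per3, with the length and GC correction. Depth limits Per2 most, whose interval was 0.96 log2 wide, against 0.05 for Csnk1d. Spread between cultures was not measured at all. For changes with the length and GC correction, the cause was not tested.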
